A study of Mus musculus with 2 samples.

Results

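The genes described here carry γ-aminobutyric acid (GABA) from synthesis through vesicle loading, uptake and breakdown to its slow receptor. They are 8 genes, measured across the cell types of the mouse prefrontal cortex (PFC): Gad1 and Gad2 (synthesis), Slc32a1 (vesicle loading), Slc6a11 (uptake), Abat and Aldh5a1 (breakdown) and Gabbr1 and Gabbr2 (the GABA-B receptor). They were taken by symbol from the 31040 genes of the deposited count table, and all 8 were found and measured. The study used single-nucleus RNA sequencing of the PFC of wild-type 2-month-old male C57BL/6 mice. The METH mice received methamphetamine, a psychostimulant, at 5 mg/kg into the peritoneum for 14 days, and the Control mice received saline in the same way for 14 days. The PFC of 3 mice per group went into 1 library per group, so the values carry no measure of spread between mice. Nuclei were separated on an iodixanol gradient and sequenced from the 3′ ends of transcripts, per the labels' protocols.

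The table holds 66566100 unique molecular identifiers (UMIs, each a counted RNA molecule), 31273163 in library 1 and 35292937 in library 2. No label ties either library to METH or to Control. METH and Control were therefore not compared, and libraries 1 and 2 are given side by side only to show how far 2 libraries differ. Of 20766 barcodes, 18002 were kept as nuclei, 8003 in library 1 and 9999 in library 2, with a median of 3047 and 2924 UMIs. A total of 154 barcode sequences occurred in both libraries. The nuclei fell into 12 named classes and 28 named types of at least 50 nuclei, without use of the 8 genes. Some carried markers of cells known from regions beside the PFC: 1040 nuclei those of striatal projection neurons, 54 those of cholinergic neurons and 190 those of neuroblasts. Markers were highest in their own class for 13 of 13 in striatal projection neurons, 12 of 12 each in astrocytes, microglia and oligodendrocytes, 8 of 14 in inhibitory neurons and 6 of 12 in excitatory neurons. Layer 2/3 and layer 6 corticothalamic neurons and oligodendrocytes each split into clusters made almost wholly of 1 library, for example 93.6% and 1.80% library 1 in the 2 largest oligodendrocyte clusters.

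GABA is the main inhibitory transmitter of the adult cortex. Glutamate decarboxylases 67 and 65, the products of Gad1 and Gad2, make it from glutamate, and the vesicular transporter VGAT (Slc32a1) loads it into synaptic vesicles. After release, GABA is taken up by membrane transporters, among them GAT3 (Slc6a11), known as an astrocyte transporter. GABA transaminase (Abat) and then succinic semialdehyde dehydrogenase (Aldh5a1), both in mitochondria, break it down to succinate. The GABA-B receptor is a pair of unlike subunits: GABBR1 binds GABA and GABBR2 brings it to the surface and couples it to G proteins.

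The 250 bases before the RefSeq start of the 3 genes of synthesis and loading, which were high in the same cell types, and of Slc6a11, the one gene with a single clear cell type, are printed here from RefSeq on build GRCm38.p6, all on the plus strand. Capitals mark a GC box, GGGCGG or its reverse CCGCCC, the site that factors of the Sp family are known to bind.
Gad1, chr2:70561879-70562128: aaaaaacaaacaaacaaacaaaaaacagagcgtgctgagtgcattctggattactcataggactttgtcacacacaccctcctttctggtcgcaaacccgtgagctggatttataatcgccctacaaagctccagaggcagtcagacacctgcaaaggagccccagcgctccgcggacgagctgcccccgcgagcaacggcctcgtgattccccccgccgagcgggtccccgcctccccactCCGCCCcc
Gad2, chr2:22622077-22622326: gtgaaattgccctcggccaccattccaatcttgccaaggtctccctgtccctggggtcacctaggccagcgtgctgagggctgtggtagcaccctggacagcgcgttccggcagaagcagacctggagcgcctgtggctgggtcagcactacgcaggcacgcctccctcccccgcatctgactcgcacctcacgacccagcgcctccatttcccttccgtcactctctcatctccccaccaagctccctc
Slc32a1, chr2:158610508-158610757: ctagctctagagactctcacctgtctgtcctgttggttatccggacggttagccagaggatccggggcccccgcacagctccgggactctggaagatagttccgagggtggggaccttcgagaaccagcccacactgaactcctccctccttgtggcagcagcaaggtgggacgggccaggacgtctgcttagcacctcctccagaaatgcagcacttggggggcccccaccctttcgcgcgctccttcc
Slc6a11, chr6:114130991-114131240: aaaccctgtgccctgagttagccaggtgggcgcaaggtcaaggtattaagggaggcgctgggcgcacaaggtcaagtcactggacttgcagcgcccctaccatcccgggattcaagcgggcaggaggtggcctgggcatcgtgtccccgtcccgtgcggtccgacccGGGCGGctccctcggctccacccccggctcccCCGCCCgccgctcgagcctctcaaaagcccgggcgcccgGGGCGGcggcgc
The Gad1 window held 1 GC box, the Gad2 and Slc32a1 windows held none, and the Slc6a11 window held 3. Of 32851 such windows of 27025 genes, 32.7% held at least 1. The windows were 58%, 64%, 62.4% and 71.2% G and C in the order printed, against a median of 52.4% over all windows. Windows were found for 7 of the 8 genes, and the other GC contents were 57.2% (Aldh5a1), 66% (Gabbr1) and 80.8% (Gabbr2). A match is a description of the letters and not a measured site.

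By the GENCODE M21 annotation on the same build, all 8 genes are protein coding. Gad1 spans chr2:70553072-70602014 on the plus strand, so the printed window lies inside its longest annotated extent. Gad2 spans chr2:22622205-22693874, so its window, set by the RefSeq start, runs into that extent, and Slc32a1 spans chr2:158610767-158615748, both on the plus strand of the same chromosome. Slc6a11 spans chr6:114131241-114249952 and Abat chr16:8513429-8621568, both on the plus strand. Aldh5a1 spans chr13:24907579-24937661 on the minus strand, Gabbr1 chr17:37045966-37075067 on the plus strand and Gabbr2 chr4:46662305-46991873 on the minus strand. The strand setting of the counting is not given in the sources used here, so UMIs of antisense neighbours may be mixed in where they overlap: Gad1os, counted on its own row with 336 UMIs against 3677 for Gad1, Gm14205 within Slc32a1 with 2 UMIs, and 4932702P03Rik at Aldh5a1 with 13 UMIs.

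Levels are given as UMIs per 1000000 UMIs (CPM), summed over the nuclei of a type in both libraries, with the exact 95% Poisson interval in brackets. All intervals cover counting error only, and the values compare a gene across types, never one gene with another, unless a share is given. RNA that leaks from broken nuclei into every droplet (free RNA) gives some UMIs in cells that do not make a gene. A type is called above free RNA where its UMIs per nucleus, at the lower 95% bound, passed in both libraries a ceiling: the lowest class's upper bound, multiplied by how far Slc17a7, an excitatory marker, varied over classes that should lack it (3.08 times in library 1, 1.69 times in library 2). The class that set the ceiling of a gene in a library could not pass it there. It was oligodendrocytes, microglia or, for Gabbr1 in library 1, differentiating oligodendrocytes.

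**Figure D1:**
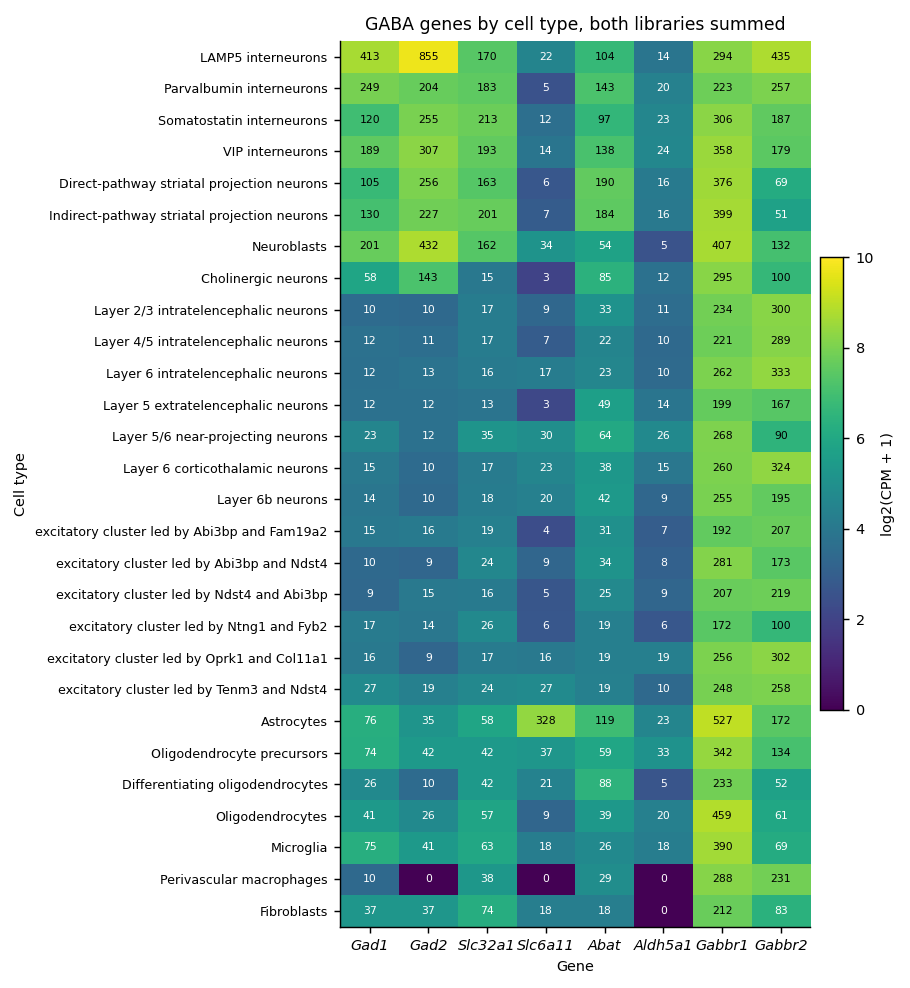
Level of each of the 8 genes (columns) in each of the 28 named cell types (rows), colour showing log2(CPM + 1) and the printed number CPM, both libraries summed. Gad1, Gad2 and Slc32a1 are high in the interneurons, striatal projection neurons and neuroblasts, and Slc6a11 in astrocytes. In neuroblasts, Gad2 was above free RNA in both libraries but Gad1 and Slc32a1 were not. Gabbr1 has 172 CPM or more in every type, but only 11 of 28 types were above free RNA for it.

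Among the 9 classes of at least 100 nuclei, 1 of the 8 genes had a highest class at least 2-fold above the next, Slc6a11 in astrocytes. Over all 14242 genes with at least 100 UMIs, 17.8% had such a class, and 2.75% had it in astrocytes. The other 7 genes were each shared by at least a pair of classes at less than 2-fold difference.

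Gad1, which makes most of the GABA in a neuron's cell body, was highest in the LAMP5 interneurons, the class that includes neurogliaform cells, at 413 CPM (367 to 462). They held 403 CPM (library 1) and 422 CPM (library 2), and 64.0% of their 264 nuclei had a Gad1 UMI. The fast-spiking parvalbumin interneurons followed at 249 CPM (231 to 268), with 251 CPM (library 1) and 247 CPM (library 2). Both libraries placed LAMP5 above parvalbumin interneurons. VIP interneurons, which mostly inhibit other interneurons, stood at 189 CPM (165 to 215), with 179.8 CPM (library 1) and 196 CPM (library 2). Somatostatin interneurons, which contact distal dendrites, stood lowest of the 4 at 119.8 CPM (107 to 134), with 115 CPM (library 1) and 124 CPM (library 2).

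The ratio of LAMP5 to parvalbumin interneurons for Gad1 was 1.66-fold (1.44 to 1.90), and it was 1.60 in library 1 and 1.71 in library 2. LAMP5 interneurons exceeded somatostatin interneurons 3.45-fold (2.94 to 4.04), and parvalbumin exceeded somatostatin interneurons 2.08-fold (1.82 to 2.38). The order LAMP5, parvalbumin, VIP, somatostatin was therefore the same in libraries 1 and 2. As background, of 9475 genes with at least 100 UMIs in inhibitory neurons, 31.7% were highest of the 4 types in LAMP5, 26.6% in parvalbumin, 21.8% in VIP and 19.9% in somatostatin interneurons.

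Outside the cortical interneurons, Gad1 stood at 201 CPM (144 to 273) in neuroblasts, a cluster with Igfbpl1 and Top2a among its leading genes. They had 179.9 CPM (library 1) and 206 CPM (library 2), and Gad1 passed the free RNA ceiling there only in library 2. Indirect-pathway striatal projection neurons had 129.9 CPM (110.5 to 152) and direct-pathway ones 105 CPM (91.2 to 120.4). The direct-pathway neurons differed between libraries, with 157 CPM (library 1) and 88.5 CPM (library 2). Cholinergic neurons had 57.8 CPM (34.8 to 90.3) and were above free RNA in both libraries.

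The 13 excitatory types lay between 9.27 and 26.5 CPM of Gad1, and 0 of 13 were above free RNA. Astrocytes at 75.7 CPM, microglia at 75.3 CPM and oligodendrocyte precursors at 74.5 CPM were not above it either. By CPM they nevertheless stood above the cholinergic neurons, as the ceiling is a count per nucleus and the cholinergic nuclei had a median of 5979.5 UMIs. The microglia show the difference between libraries, with 20.9 CPM (library 1) and 117 CPM (library 2). In all, 7 of 28 types were above free RNA for Gad1, and they were the 4 interneuron types, both striatal projection types and the cholinergic neurons.

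Gad2, whose enzyme sits at nerve terminals and is tuned by its cofactor, was also highest in LAMP5 interneurons, at 855 CPM (789 to 925), with 916 CPM (library 1) and 802 CPM (library 2). Each LAMP5 nucleus held 2.34 Gad2 UMIs on average, and 83.0% of them had at least 1. Neuroblasts came next at 432 CPM (346 to 532), with 359.8 CPM (library 1) and 448 CPM (library 2). The ratio of LAMP5 interneurons to neuroblasts was 1.98-fold (1.58 to 2.51), so the 2 leading types differed beyond counting error.

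VIP interneurons had 307 CPM (276 to 340.2), with 359.6 CPM (library 1) and 266 CPM (library 2), and somatostatin interneurons had 255 CPM (236 to 275), with 274 CPM (library 1) and 238 CPM (library 2). Parvalbumin interneurons were the lowest of the 4 interneuron types for Gad2, at 204 CPM (188 to 221), with 195 CPM (library 1) and 212 CPM (library 2). LAMP5 interneurons exceeded them 4.19-fold (3.74 to 4.70), a far wider gap than for Gad1. Parvalbumin interneurons were thus next to highest among interneurons for Gad1 and lowest for Gad2, in each library.

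The direct-pathway and indirect-pathway striatal projection neurons had 256 and 227 CPM of Gad2. Cholinergic neurons had 143 CPM (105 to 190.1), with 144 CPM (library 1) and 142 CPM (library 2), and 50% of their 54 nuclei had a Gad2 UMI. The step from cholinergic neurons to the next type, the oligodendrocyte precursors at 41.6 CPM, was 3.44-fold (1.98 to 6.20). That was the widest step between neighbours in the order of the types with a UMI, and 8 of 28 types, all on its upper side, were above free RNA.

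**Figure D2:**
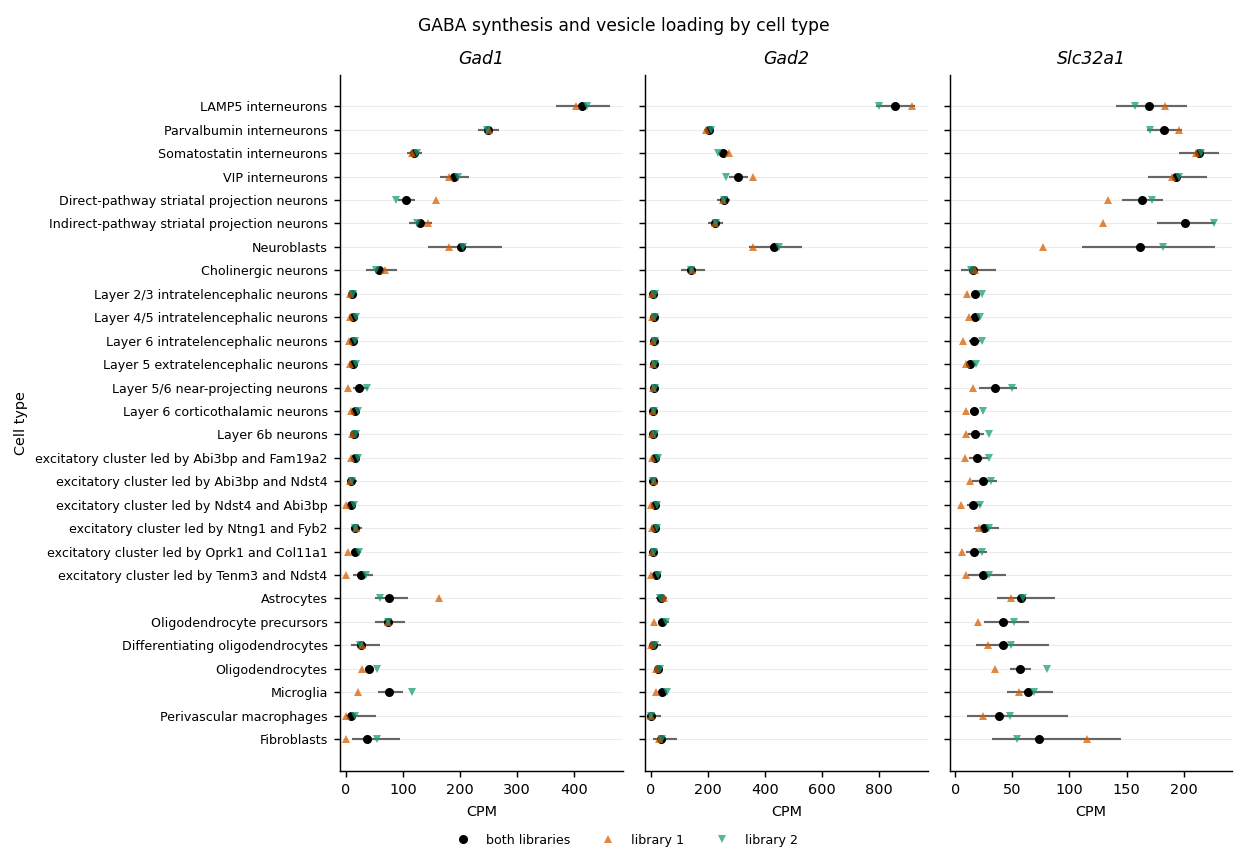
Gad1, Gad2 and Slc32a1 in 28 cell types (rows), in CPM on a linear axis. Black points are both libraries summed with their 95% Poisson intervals, and triangles are library 1 and library 2. LAMP5 interneurons lead Gad1 at 413 CPM and Gad2 at 855 CPM but stand at 169.9 CPM for Slc32a1, and cholinergic neurons carry Gad2 with little Slc32a1.

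Slc32a1, the vesicle loader that also carries glycine, had a flatter profile. Somatostatin interneurons were highest at 213 CPM (196 to 231), with 211 CPM (library 1) and 215 CPM (library 2). Indirect-pathway striatal projection neurons had 201 CPM (177 to 228), VIP interneurons 193 CPM (169 to 220.0), parvalbumin interneurons 183 CPM (168 to 199) and LAMP5 interneurons 169.9 CPM (141 to 203). Over the 4 interneuron types the level spanned 169.9 to 213 CPM. Over the 28 types the highest level was 15.9 times the lowest, against 44.5 times for Gad1. For both genes the lowest type was an excitatory one that was not above free RNA, so these ratios depend on the free RNA level. Each of the 27 ratios between neighbours in the order of types had an interval that included 1. Neighbours in a sorted order are close by construction, so that count does not measure flatness.

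The LAMP5 interneurons, which led both synthesis genes, were lowest of the 4 interneuron types for Slc32a1, with 184 CPM (library 1) and 158 CPM (library 2). The highest interneuron type was LAMP5 for Gad1, Gad2 and Gabbr2 and somatostatin for Slc32a1. These places were the same with a minimum of 1000 genes per nucleus and with a finer clustering. They could not be checked with doublets kept, with a minimum of 200 genes or at resolution 0.6, where VIP and LAMP5 interneurons did not separate.

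Cholinergic neurons carried Gad2 and Gad1 above free RNA but had 15.2 CPM (4.94 to 35.5) of Slc32a1, with 17.0 CPM (library 1) and 14.2 CPM (library 2), and did not pass the ceiling. The 54 nuclei, 18 in library 1 and 36 in library 2, had a median of 5979.5 UMIs. Their Slc32a1 level lay within that of the 13 excitatory types, 13.4 to 34.7 CPM, of which 0 were above free RNA.

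Direct-pathway striatal projection neurons had 163 CPM (146 to 182) of Slc32a1 and neuroblasts 162 CPM (111 to 227). The neuroblasts had 77.1 CPM (library 1) and 182 CPM (library 2), and with 39 nuclei in library 1 they were not above free RNA there. Microglia, astrocytes and oligodendrocytes had 63.3, 58.0 and 56.7 CPM, and 0 of 7 non-neuronal types were above free RNA. The 6 types that were above it were the 4 interneuron types and both striatal projection types.

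To see whether the 3 genes occurred in the same nuclei, each nucleus was reduced at random to 1000 UMIs and shallower nuclei were left out. Of 2425 inhibitory nuclei, 48.8% (46.8 to 50.8) had at least 1 of Gad1, Gad2 and Slc32a1 (95% Clopper-Pearson interval), and 11.2% had at least 2 of the genes. Of 1037 striatal projection nuclei, 38.2% (35.2 to 41.2) had at least 1. The background in cells that should lack the genes was 9.72% (7.70 to 12.1) in 751 of 3051 oligodendrocytes, of median depth 767 to 1335 UMIs before reduction by cluster, and 4.23% (3.79 to 4.70) in 7876 excitatory nuclei. It was higher in some smaller classes, at 27.8% (16.5 to 41.6) in 54 microglia, 15.7% (7.02 to 28.6) in 51 fibroblasts, 14.7% (10.6 to 19.7) in 252 oligodendrocyte precursors and 12.4% (8.52 to 17.2) in 242 astrocytes. The interval of the microglia overlapped that of the striatal projection nuclei. Of 54 cholinergic nuclei, 9.26% (3.08 to 20.3) had at least 1, within the range of these background classes. Without the reduction, the shares were 79.9% in inhibitory, 74.5% in striatal projection, 66.7% in cholinergic, 10.3% in oligodendrocyte and 16.4% in excitatory nuclei.

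Within the interneurons, LAMP5 nuclei stood apart: 76.4% (70.8 to 81.4) had at least 1 of the 3 genes, against 46.4% of VIP, 45.6% of somatostatin and 44.7% of parvalbumin nuclei. At least 2 of the genes were found in 24.7% of LAMP5 nuclei. Among parvalbumin nuclei, 16.5% had Gad1 without Gad2 and 13.2% had Gad2 without Gad1. The order was the other way round in LAMP5 nuclei (14.4% and 38.8%), somatostatin nuclei (9.56% and 19.7%) and VIP nuclei (10.6% and 20.5%).

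The balance of the 2 decarboxylases was read as the Gad1 share of the summed Gad1 and Gad2 UMIs, compared between cell types only. It was 55.0% (52.3 to 57.7) in parvalbumin interneurons, with 56.3% in library 1 and 53.8% in library 2. It was 38.1% (34.1 to 42.2) in VIP, 32.6% (29.5 to 35.7) in LAMP5 and 32.0% (29.1 to 34.9) in somatostatin interneurons. The interval of the parvalbumin interneurons overlapped none of the other 3, while those of LAMP5 and somatostatin interneurons overlapped.

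Striatal projection neurons had a Gad1 share of 31.8% (29.2 to 34.6), with 38.5% in library 1 and 29.3% in library 2. Direct-pathway neurons had 29.1% (25.7 to 32.5), and their libraries differed, with 38.1% in library 1 and 25.6% in library 2. Cholinergic neurons had 28.8% (18.3 to 41.3). The types below the free RNA ceiling had higher shares, for example 61.6% (54.3 to 68.5) in oligodendrocytes and 52.5% (49.2 to 55.8) in excitatory neurons, and they are not read as shares of those cells' own RNA.

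**Figure D3:**
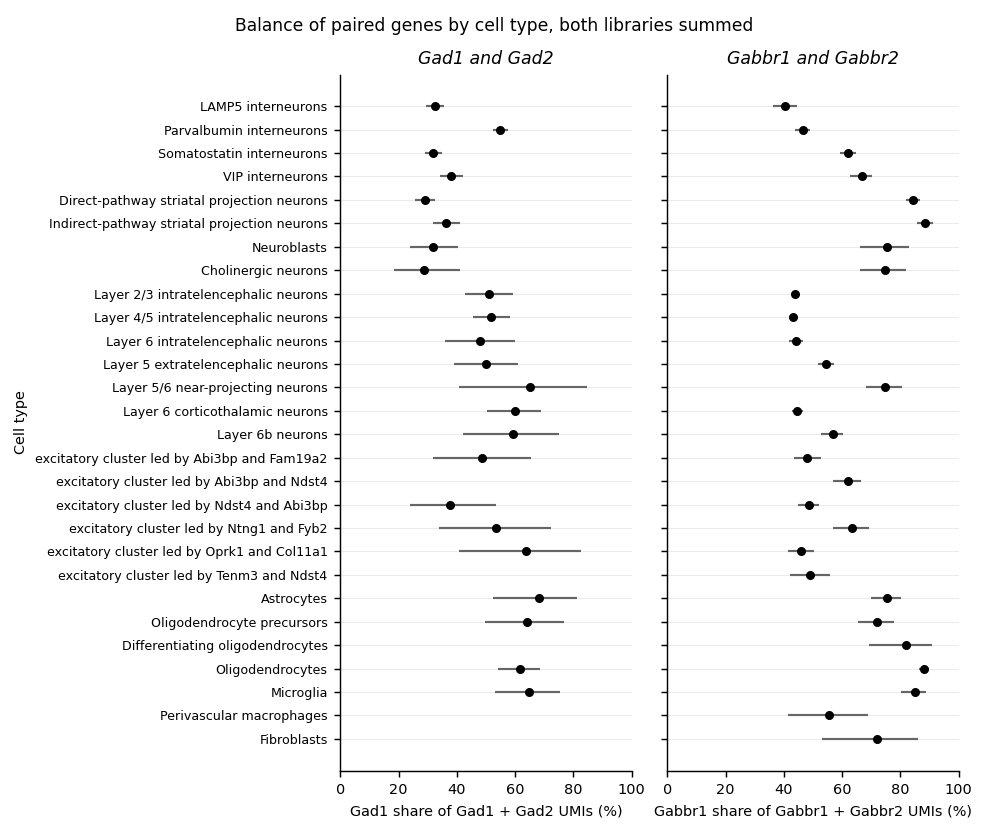
Gad1 share of Gad1 and Gad2 UMIs (left) and Gabbr1 share of Gabbr1 and Gabbr2 UMIs (right), in percent, by cell type with both libraries summed. Points are shares with 95% Clopper-Pearson intervals, and types with few UMIs of the pair have no point. Parvalbumin interneurons have the highest Gad1 share of the 4 interneuron types (55.0%). The Gabbr1 share runs from 40.3% in LAMP5 interneurons, where Gabbr1 was not above free RNA, to 88.6% in indirect-pathway striatal projection neurons, where Gabbr2 was not.

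Slc6a11 was highest in astrocytes. Astrocytes had 328 CPM (274 to 389), with 391 CPM (library 1) and 316 CPM (library 2), and 32.5% of 308 nuclei had a UMI. The next type, the oligodendrocyte precursors, had 37.2 CPM (21.7 to 59.6), with 13.5 CPM (library 1) and 48.6 CPM (library 2), and was not above free RNA. Astrocytes exceeded the precursors 8.81-fold (5.29 to 15.6) and oligodendrocytes 37.2-fold (24.1 to 59.6). The astrocytes were few, 51 in library 1 and 257 in library 2, yet both libraries placed them first. Over the next class the ratio was 27.3-fold in library 1 alone, 6.52-fold in library 2 alone and 21.9-fold among nuclei with at least 1000 genes.

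At a lower level, Slc6a11 was above free RNA in 7 of 13 excitatory types, most of them deep. Near-projecting neurons of layers 5 and 6, which keep their axons local, had 29.5 CPM (17.2 to 47.3), with 27.4 CPM (library 1) and 31.2 CPM (library 2). Corticothalamic neurons of layer 6 had 22.7 CPM (18.6 to 27.6), with 20.7 CPM (library 1) and 24.8 CPM (library 2). Layer 6b neurons had 19.5 CPM (13.2 to 27.9) and layer 6 intratelencephalic neurons 17.4 CPM (12.9 to 23.0).

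The remaining 3 types above free RNA were the layer 2/3 neurons at 9.25 CPM, the cluster led by Oprk1 and Col11a1 at 15.5 CPM and that led by Tenm3 and Ndst4 at 26.5 CPM. Layer 5 extratelencephalic neurons, the deepest-sequenced type with a median of 6559 UMIs, had 3.49 CPM (1.80 to 6.10). Corticothalamic neurons exceeded them 6.51-fold (3.57 to 13), and the ratio was 7.71 in library 1 and 5.59 in library 2. The corticothalamic neurons were made of 630 nuclei that were 96.8% library 1 and 580 that were 1.72% library 1, and both libraries gave a like level.

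Interneurons and striatal projection neurons did not pass the free RNA ceiling for Slc6a11. The 4 interneuron types had 4.76 to 22.1 CPM and both striatal types under 7 CPM, and 0 of these 6 types were above free RNA. By CPM, however, all 6 lay within the range of the 13 excitatory types, 3.49 to 29.5 CPM. The ceiling is a count per nucleus and depth per nucleus differs between types, so passing it does not order the types by level.

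**Figure D4:**
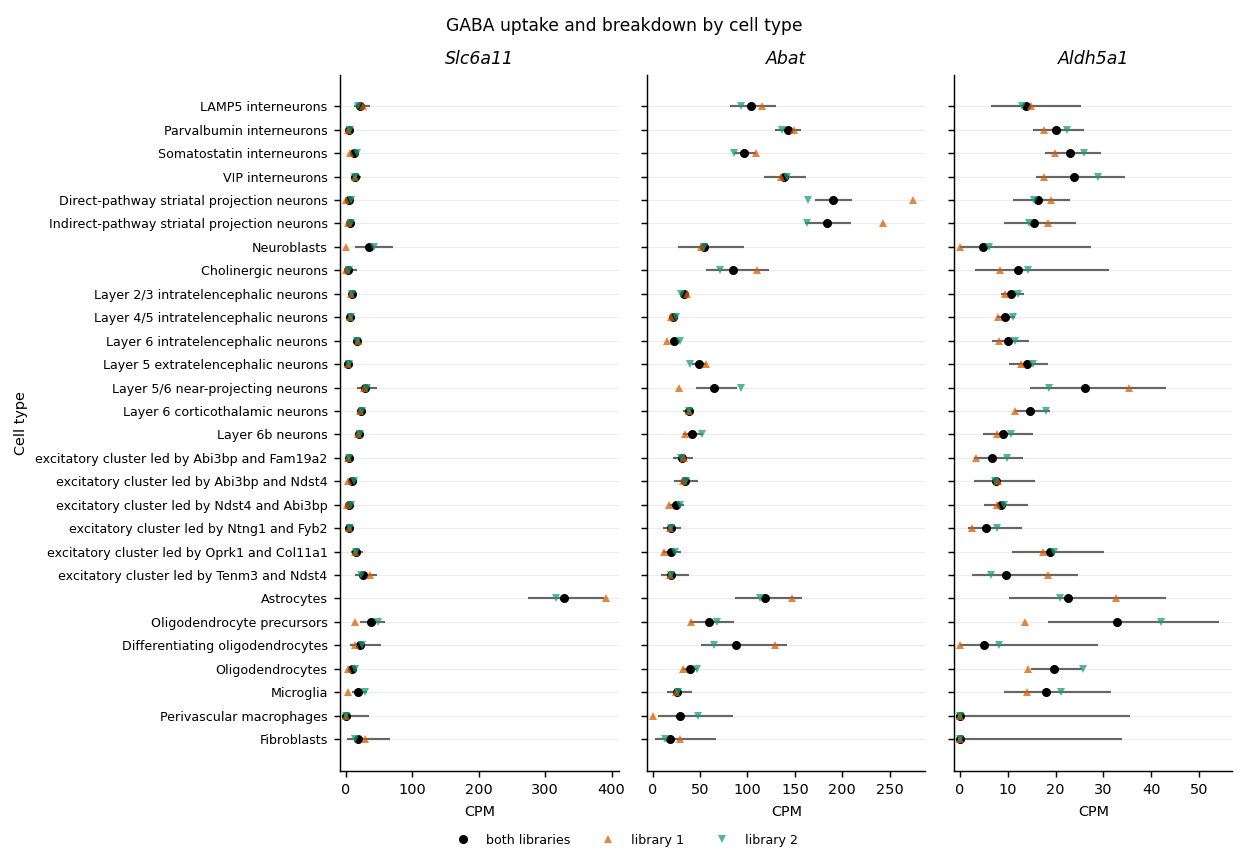
Slc6a11, Abat and Aldh5a1 in 28 cell types (rows), in CPM on a linear axis that differs between panels. Black points are both libraries summed with 95% Poisson intervals, and triangles are library 1 and library 2. Slc6a11 stands at 328 CPM in astrocytes and under 40 CPM elsewhere, Abat is highest in the striatal projection neurons, where library 1 lies above library 2, and the wide intervals of Aldh5a1 overlap in most types.

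Abat, the first step of breakdown, was highest in striatal projection neurons. Direct-pathway neurons had 190.1 CPM (171 to 210.4), with 274 CPM (library 1) and 164 CPM (library 2), and indirect-pathway neurons had 184 CPM (161 to 209), with 243 CPM (library 1) and 162 CPM (library 2). Both types were higher in library 1, and direct and indirect pathway did not differ beyond counting error, at 1.03-fold (0.874 to 1.23). Parvalbumin interneurons followed at 143 CPM (129 to 157), with 149 CPM (library 1) and 137 CPM (library 2), and the step down to them from the indirect-pathway neurons was 1.29-fold (1.09 to 1.52).

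VIP interneurons had 138 CPM (118 to 161), LAMP5 interneurons 104 CPM (81.5 to 129.8) and somatostatin interneurons 96.7 CPM (85.4 to 109). Parvalbumin interneurons exceeded somatostatin interneurons 1.47-fold (1.26 to 1.73). As a class, inhibitory neurons exceeded excitatory neurons 3.96-fold (3.63 to 4.32) for Abat, and striatal projection neurons exceeded them 6.11-fold (5.53 to 6.75). Cholinergic neurons had 85.2 CPM (56.6 to 123), and they too were above free RNA.

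Unlike the synthesis genes, Abat was also above free RNA in 3 of 13 excitatory types. Layer 5 extratelencephalic neurons had 48.6 CPM (41.5 to 56.5), layer 6 corticothalamic neurons 38.0 CPM (32.5 to 44.1) and layer 2/3 neurons 33.0 CPM (29.0 to 37.3). Near-projecting neurons had more, 64.3 CPM (45.3 to 88.6), but the value differed between libraries, with 27.4 CPM (library 1) and 93.7 CPM (library 2). Astrocytes, the glial site where GABA is known to be broken down, had 119 CPM (87.1 to 158), with 147 CPM (library 1) and 113 CPM (library 2). They exceeded oligodendrocytes 3.03-fold (2.11 to 4.30) and microglia 4.63-fold (2.61 to 8.60), but with 51 nuclei in library 1 they were not above free RNA in both libraries.

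Aldh5a1, the second step, was thinly counted, with 935 UMIs over all barcodes, of which 801 lay in kept nuclei. Oligodendrocyte precursors were highest at 32.8 CPM (18.4 to 54.2), near-projecting neurons had 26.1 CPM (14.6 to 43.0) and VIP interneurons 23.9 CPM (15.9 to 34.6). Somatostatin interneurons had 23.1 CPM (17.7 to 29.5), parvalbumin interneurons 20.1 CPM (15.3 to 25.9) and astrocytes 22.7 CPM (10.4 to 43.1). Of the 28 types, 0 were above free RNA in both libraries, so a type-specific level of Aldh5a1 was not detectable at this depth.

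Gabbr1, the subunit that binds GABA, had UMIs in every type, and 11 of 28 types were above free RNA. These were 8 of 13 excitatory types, 1 of 4 interneuron types (somatostatin), 1 of 2 striatal types (direct pathway) and the cholinergic neurons, and 0 of 7 non-neuronal types. The ceiling is a count per nucleus, set from differentiating oligodendrocytes in library 1 and microglia in library 2, and depth per nucleus differs between types, so the order by CPM is another one. By CPM, astrocytes had 527 CPM (458 to 604), with 342 CPM (library 1) and 561 CPM (library 2), and oligodendrocytes 459 CPM (434 to 484), with 417 CPM (library 1) and 504 CPM (library 2). The 2 leading classes differed 1.15-fold (0.988 to 1.33), within counting error, and in library 1 alone oligodendrocytes were higher. Indirect-pathway striatal projection neurons had 399 CPM (364 to 436), direct-pathway ones 376 CPM (349 to 404) and VIP interneurons 358 CPM (325 to 394).

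Parvalbumin interneurons were the lowest of the interneurons for Gabbr1, at 223 CPM (206 to 241), with 196 CPM (library 1) and 249 CPM (library 2). Relative to somatostatin interneurons they stood at 0.729-fold (0.657 to 0.808), and relative to VIP interneurons at 0.623-fold (0.551 to 0.706). The 13 excitatory types ran from 172 CPM in the cluster led by Ntng1 and Fyb2 to 281 CPM in that led by Abi3bp and Ndst4. All 27 ratios between neighbours in the order of types had an interval that included 1, which the sorting favours. Over the 9 classes the highest level was 2.28 times the lowest for Gabbr1, 5.15 times for Gabbr2 and 16.6 times for Gad1. The lowest class was not above free RNA for Gabbr2 (differentiating oligodendrocytes) or for Gad1 (excitatory neurons), so those ratios depend on the free RNA level.

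Gabbr2, the partner subunit, varied more. LAMP5 interneurons were highest at 435 CPM (388 to 486), with 459 CPM (library 1) and 414 CPM (library 2), and 65.5% of them had a UMI. Layer 6 intratelencephalic neurons had 333 CPM (312 to 354), layer 6 corticothalamic neurons 324 CPM (307 to 341), layer 2/3 neurons 300.1 CPM (288 to 313) and layer 4/5 neurons 289 CPM (278 to 299). LAMP5 interneurons exceeded the layer 6 intratelencephalic neurons 1.31-fold (1.15 to 1.49), the one step between neighbours in the order of 28 types whose interval excluded 1.

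Among the interneurons, parvalbumin neurons had 257 CPM (239 to 276), somatostatin neurons 187 CPM (171 to 204) and VIP neurons 179 CPM (155 to 204). LAMP5 interneurons exceeded VIP interneurons 2.44-fold (2.04 to 2.92), and the ratio was 2.18 in library 1 and 2.70 in library 2. With both libraries summed, VIP interneurons were thus highest of the 4 for Gabbr1 and lowest for Gabbr2, with 211 CPM (library 1) and 153 CPM (library 2) of Gabbr2, although somatostatin interneurons had a like level of it, with 209.6 CPM (library 1) and 166 CPM (library 2).

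Excitatory neurons were not of one kind for Gabbr2. Layer 5 extratelencephalic neurons had 167 CPM (153 to 181), with 175 CPM (library 1) and 157 CPM (library 2), and corticothalamic neurons exceeded them 1.94-fold (1.76 to 2.14). Near-projecting neurons were lowest of the 13 excitatory types at 90.3 CPM (67.5 to 118), with 94.0 CPM (library 1) and 87.4 CPM (library 2). Layer 2/3 neurons exceeded near-projecting neurons 3.32-fold (2.52 to 4.46), and the ratio was 2.98 in library 1 and 3.63 in library 2. Of the 13 types, 12 were above free RNA, and the near-projecting neurons were the exception.

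Striatal projection neurons had the least Gabbr2 of the neurons. Indirect-pathway neurons had 51.5 CPM (39.5 to 65.8), with 33.9 CPM (library 1) and 57.8 CPM (library 2), and direct-pathway neurons 69.3 CPM (58.2 to 82.0), with 55.2 CPM (library 1) and 73.8 CPM (library 2). Neither type was above free RNA, and relative to excitatory neurons the class stood at 0.234-fold (0.202 to 0.269). Their Gabbr1 differed the opposite way, at 1.66-fold (1.56 to 1.76) relative to excitatory neurons. Oligodendrocytes at 61.3 CPM and microglia at 69.3 CPM were likewise low, while astrocytes had 172 CPM (133 to 217) and exceeded oligodendrocytes 2.80-fold (2.08 to 3.72). Astrocytes were not above free RNA for Gabbr2 either. Microglia and oligodendrocytes could not be, because they set its ceiling in library 1 and in library 2.

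**Figure D5:**
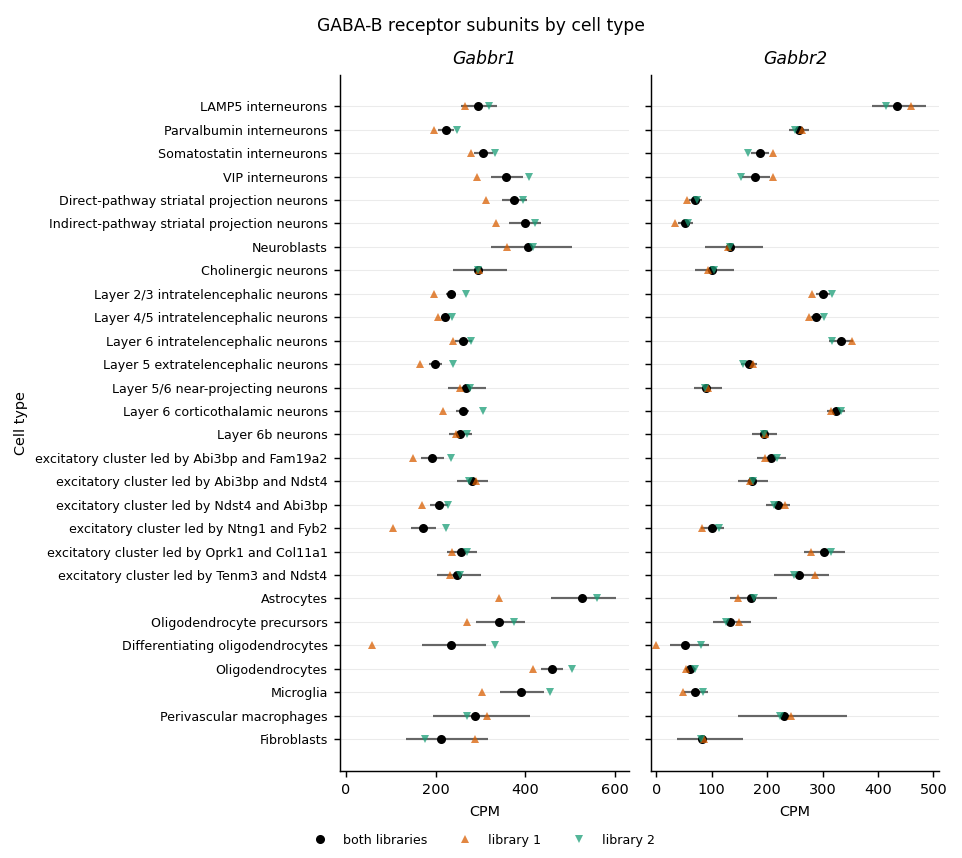
Gabbr1 and Gabbr2 in 28 cell types (rows), in CPM on a linear axis. Black points are both libraries summed with 95% Poisson intervals, and triangles are library 1 and library 2. Gabbr1 is higher in library 1 than in library 2 in 4 of 28 types, and Gabbr2 is low in striatal projection neurons, near-projecting neurons, oligodendrocytes and microglia.

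The Gabbr1 share of the summed Gabbr1 and Gabbr2 UMIs brought these profiles together. It was 86.0% (84.1 to 87.8) in striatal projection neurons, 88.2% (86.5 to 89.8) in oligodendrocytes, 84.9% (80.4 to 88.7) in microglia and 75.5% (69.9 to 80.4) in astrocytes. As neither striatal type passed the free RNA ceiling for Gabbr2, and of the non-neuronal types 0 of 7 passed it for Gabbr1 and 1 of 7 (perivascular macrophages) for Gabbr2, these shares are not read as shares of those cells' own RNA. The Gabbr1 share was 54.3% (52.7 to 55.9) in inhibitory and 46.4% (45.7 to 47.2) in excitatory neurons. The inhibitory value differed between libraries, with 49.2% in library 1 and 58.6% in library 2. The excitatory class hid a wide range: near-projecting neurons, above free RNA for neither subunit, had 74.8% (68.3 to 80.5), with 73.0% in library 1 and 76.1% in library 2, while layer 4/5 neurons had 43.3% (42.0 to 44.7). Among interneurons the share was 66.7% (62.9 to 70.4) in VIP, 62.1% (59.5 to 64.7) in somatostatin, 46.5% (43.9 to 49.2) in parvalbumin and 40.3% (36.1 to 44.7) in LAMP5 neurons. In libraries 1 and 2 it was 58.1% and 72.7% in VIP and 57.1% and 66.6% in somatostatin neurons. Parvalbumin neurons had 42.6% and 49.9%, and LAMP5 neurons 36.7% and 43.5%. Only the somatostatin type among these passed the ceiling for Gabbr1, so the other interneuron shares carry the same limit. Indirect-pathway neurons had 88.6% (85.6 to 91.1) and direct-pathway neurons 84.4% (81.8 to 86.8).

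A further 10 clusters of at least 50 nuclei matched no marker list well enough to be named. Of these, 5 were above free RNA for Gad1, 7 for Gad2 and 4 for Slc32a1. The largest, 375 nuclei led by 4930555F03Rik and C130073E24Rik, had 259 CPM (231 to 289) of Gad2. A cluster of 82 nuclei led by Gpr149 and Slco5a1 had 411 CPM (316 to 526) of Gad2, and one of 79 nuclei led by Lgr5 and Adamts19 had 353 CPM (240.1 to 502) of Gad1. Slc32a1 was at 294 CPM (215 to 392) in 96 nuclei led by Chst9 and Foxp2. The Gad1 and Gad2 levels lay within the range of the 4 interneuron types and the Slc32a1 level above it.

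The likeness of the profiles over the 24 named types of at least 100 nuclei was described by Pearson's r of log2(CPM + 1), with no p because the types share 2 libraries and one free RNA pool. It was 0.95 between Gad1 and Gad2, 0.95 between Gad1 and Slc32a1 and 0.94 between Gad2 and Slc32a1, and 0.93 between Gad1 and Gad2 without the LAMP5 interneurons. Abat correlated with Slc32a1 at 0.80. Gabbr1 and Gabbr2 were negatively related, at -0.38. The 3 genes of 10493 nearest to Slc6a11 were Nkain4 at 0.88 and Cpe and Clu, both at 0.87. Those nearest to Abat included Slc32a1 and Rbms3 at 0.78. Gabbr2 was nearest to Runx2 at 0.86, C230057M02Rik and A830082K12Rik, and Gabbr1 to Gm40271 at 0.87, Pink1 at 0.86 and Emc7. Gad1, Gad2 and Slc32a1 each had the other 2 genes and Dlx6os1 as their nearest 3, Dlx6os1 being one of the markers that named the inhibitory neurons. Aldh5a1 was nearest to Mettl3 at 0.79, A330069E16Rik and Hnmt.

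The libraries were set against each other within the 5 classes of at least 200 nuclei in each. Of 27 pairs of a gene and a class with at least 100 UMIs, 7 differed by more than 1.5-fold. In excitatory neurons 3 of 8 genes did, against a background of 6.52% of all genes tested there: Gad1 at 7.44 CPM (library 1) and 17.4 CPM (library 2), a ratio of 0.429 (0.348 to 0.526), Gad2 with a ratio of 0.408 (0.327 to 0.506) and Slc32a1 with 0.439 (0.369 to 0.522). These are the levels below the free RNA ceiling, and Gad1 and Gad2 were higher in library 1 in 1 of 13 excitatory types each and Slc32a1 in 0 of 13.

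In inhibitory neurons 0 of 7 genes differed by more than 1.5-fold, against 8.0% of genes. The ratio of library 1 to library 2 was 0.973 (0.880 to 1.08) for Gad1, 1.10 (1.01 to 1.19) for Gad2, 1.05 (0.948 to 1.17) for Slc32a1 and 1.12 (0.986 to 1.28) for Abat. For the receptor it was 0.792 (0.726 to 0.864) for Gabbr1 and 1.16 (1.05 to 1.27) for Gabbr2, so the subunits differed in opposite directions between libraries. In striatal projection neurons 1 of 6 genes passed, against 13%: Abat at 262 CPM (library 1) and 163 CPM (library 2), a ratio of 1.60 (1.35 to 1.90).

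In oligodendrocytes 2 of 5 genes passed, against 21.3%, namely Gad1 with a ratio of 0.536 (0.359 to 0.791) and Slc32a1 with 0.440 (0.310 to 0.618). Oligodendrocytes set the free RNA ceiling of Gad1 in library 2 and of Slc32a1 in library 1, so neither gene could be above it there. In microglia the 1 gene with enough UMIs, Gabbr1, passed with 0.665 (0.508 to 0.866), against 35.5%. Microglia likewise set the ceiling of Gabbr1 in library 2. Gabbr1 was lower in library 1 in all 5 classes. With 1 library on each side, a difference between groups of mice, between dissections and between library preparations cannot be told apart.

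Of 44 other genes of the GABA pathway listed, 43 were found and 37 had at least 50 UMIs in named classes. A highest class at least 2-fold above the next was seen in 17, of which 11 had not served to name clusters. The share over all genes was 17.8%, but that was counted from 100 UMIs up, so the 2 minimums differ. Slc6a6, the taurine transporter, had no such class and stood at 258 CPM in striatal projection neurons and 166 CPM in oligodendrocytes. Classes here are the 9 of at least 100 nuclei, and types outside them or within them are named where they were as high. For Slc6a6 the 69 fibroblasts were highest, at 561 CPM.

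Of the 6 measured genes of glutamine and glutamate supply, 3 had a clear class. Glul, glutamine synthetase, stood at 704 CPM in astrocytes and 345 CPM in oligodendrocytes, 2.04-fold (1.78 to 2.33). The glutamine transporter Slc38a3 stood at 272 CPM in astrocytes and 98.5 CPM in oligodendrocyte precursors, and Slc38a2 at 432 CPM in oligodendrocytes and 201 CPM in neuroblasts. By type, however, fibroblasts had 4021 CPM of Slc38a2, 9.32-fold (8.33 to 10.4) the oligodendrocyte level. The excitatory cluster led by Ntng1 and Fyb2 had 274 CPM of Slc38a3, 1.01-fold (0.800 to 1.27) the astrocyte level, and fibroblasts had 497 CPM of Glul. Of 7 other measured enzymes, listed as on or beside the routes that make and break down GABA, 4 were clear by class, all in astrocytes: Maob at 45.4 CPM, Aldh1a1 at 90.8 CPM, Aldh9a1 at 85.8 CPM and Aox1 at 85.8 CPM. By type, fibroblasts were higher for Aox1, at 175 CPM, and cholinergic neurons had 42.6 CPM of Maob, from which astrocytes differed 1.07-fold (0.501 to 2.32), within counting error. For Aldh1a1 the interval of the ratio of astrocytes to perivascular macrophages also included 1. Maob and the aldehyde dehydrogenases belong to the route from putrescine to GABA.

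Of 5 measured auxiliary proteins of the GABA-B receptor, Kctd12 was clear, at 164 CPM in microglia and 19.6 CPM in neuroblasts. Kctd proteins set how fast the receptor's signal fades. By type, Kctd16 was highest in LAMP5 interneurons at 3488 CPM, followed by the excitatory cluster led by Oprk1 and Col11a1 at 3142 CPM, and Kctd8 was highest in somatostatin interneurons at 576 CPM, followed by indirect-pathway striatal projection neurons at 573 CPM. Of 9 measured effectors, 2 were clear: Kcnj6, a potassium channel subunit that the receptor opens, at 132 CPM in excitatory and 46.0 CPM in inhibitory neurons, 2.86-fold (2.56 to 3.20), and Gnb5, a G protein subunit, at 125 CPM in striatal projection and 53.0 CPM in inhibitory neurons. Of 8 regulators of the GABA phenotype 7 were clear, and all but Dlx6 had helped to name the classes. Dlx6 stood at 34.3 CPM (13.8 to 70.7) in neuroblasts and 11.8 CPM in inhibitory neurons, 2.92-fold (1.14 to 6.26). By type, its ratio of neuroblasts to cholinergic neurons was 2.26-fold (0.617 to 9.02), within counting error.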

How the data were processed

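Nuclei of mouse PFC were sequenced from the 3′ ends of transcripts on a 10x platform, per the labels' protocols. The authors deposited 1 table of UMI counts, whole numbers for each gene in each barcode, with 2 libraries together. Per the submitters' processing notes, Cell Ranger 1.3.0, Seurat 3.1.4 and the mm10 build were used, while per the file headers the table was written by software version 3.1.0. Other settings, filters and the use of strand are not given in the sources used here. The ends of the barcodes tell 2 libraries apart, and nothing ties them to METH or Control.

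Barcodes with at least 500 genes were kept (19551 of 20766). Scrublet, run by Scanpy 1.11.5 in Python 3.11.15, called 889 doublets in library 1 (10.0%) and 660 in library 2 (6.19%), which were removed. Counts were scaled to 10000 per nucleus and log-transformed. From 3000 variable genes, without the 8 genes and the listed pathway genes, 40 principal components and 20 neighbours were made, and Leiden clusters at resolution 1 (scikit-learn 1.9.0, igraph 0.11.9, leidenalg 0.10.2). Clusters without a name (at least 60 nuclei), and striatal ones without a pathway, were clustered again at 0.5. Clusters were named after the best-matching marker list, given a score of at least 0.4. At least 3 of its markers were needed at 20 CPM and at 25% of their top level in any cluster. A class also needed 1.5 times the score of the best list from any other class. Among the 10 leading genes, markers of another class could not outnumber those of the class given. Of 53 final clusters, 18 stayed unnamed. Naming thresholds were set after the clusters had been seen. The matrix held no mitochondrial gene by symbol.

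UMIs were summed per class or type. Intervals are exact Poisson (levels), exact conditional (ratios) and Clopper-Pearson (shares) at 95%, made with NumPy 2.4.6, pandas 2.3.3 and SciPy 1.17.1, and they cover counting error only. No p-value is given, because nuclei are not replicates. The calculations were tested on simulated data. The genes named are the 8 members, listed pathway genes with a clear class, and for each member the 3 genes nearest in profile. One gene that these rules would name is not reported here. Other genes named by their level in one type were chosen after their values were seen. Members and lists were chosen with earlier results of these data known. Promoter windows come from RefSeq and gene positions from GENCODE M21, both on GRCm38. Figures were drawn with matplotlib 3.10.9.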

Additional observations from a re-analysis of the deposited data

How the results depend on the processing

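No paired analysis was possible because each group has 1 library and nothing ties the libraries to METH or Control. For the same reason METH was not set against Control.

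The highest class was the same for 5 of 8 genes with doublets kept, 6 of 8 with free RNA subtracted and 7 of 8 at resolution 0.6 or 1.5, in library 2 alone and as a mean over nuclei. A leading class that was too small under a setting left its gene uncompared: of the genes compared, it was the same for 6 of 6 with a minimum of 1000 genes, 7 of 7 with 200 genes and 5 of 7 in library 1 alone. Where the leading class changed, the ratio of the usual leader to the new one fell below 1. With doublets kept it was 0.99 for Slc32a1 (inhibitory over striatal projection neurons), 0.80 for Aldh5a1 (oligodendrocyte precursors over astrocytes) and 0.94 for Gabbr1 (astrocytes over oligodendrocytes). In library 1 alone it was 0.42 for Aldh5a1 and 0.82 for Gabbr1 over the same classes, and in library 2 alone 0.98 for Slc32a1. At resolution 0.6 it was 0.97 for Gad2 (neuroblasts over inhibitory neurons), and at 1.5 it was 0.89 for Gad1 (inhibitory neurons over neuroblasts). With free RNA subtracted it was 0.91 for Aldh5a1 (over inhibitory neurons) and 0.85 for Gabbr1 (over striatal projection neurons). As a mean over nuclei it was 0.86 for Gad1. The cause of these changes was not tested. Astrocytes stayed first for Slc6a11 under each of these settings, at 6.52-fold to 27.3-fold the next class.

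By share of nuclei with a UMI, the class with the highest share was the same for 4 of 8 genes when nuclei were thinned to 2000 UMIs, which left too few astrocytes to count, and for 4 when not thinned. The share of inhibitory nuclei with at least 1 of Gad1, Gad2 and Slc32a1 was 70.8% at 2000 UMIs and 79.9% unthinned, against 48.8% at 1000, so it follows depth. The Gabbr1 share in inhibitory neurons was 49.2% in library 1 alone and 58.6% in library 2 alone. The pairs of gene and class past 1.5-fold between libraries numbered 5 with 1000 genes and 8 with doublets kept, against 7. Settings for co-detection and for the interneuron types were added after seeing the data. VIP and LAMP5 interneurons did not form separate clusters with doublets kept, with 200 genes or at resolution 0.6.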
